A study of Homo sapiens with 12 samples.

Results

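The mRNAs of 9 tubulin genes were examined in human liver spheroid co-cultures, of 16705 genes with values in the deposited table. The members were fixed by gene name, with earlier results of these data known: TUBA1A, TUBA1B, TUBA1C and TUBA4A encode α-tubulins, and TUBB, TUBB2A, TUBB3, TUBB4B and TUBB6 encode β-tubulins. All 9 were found and all 9 passed the filter on low values. Spheroids were built from C3A cells, a clone of the HepG2 hepatoma line, and LX-2 cells, an immortalized line of activated hepatic stellate cells, with C3A cells seeded in excess. Each was a co-culture of established lines with no other liver cell type. The 12 libraries formed 4 groups of 3: untreated spheroids and spheroids given total parenteral nutrition (TPN, the complete intravenous feed used in patients, with glucose, amino acids, lipids, electrolytes, vitamins and trace elements) at 1%, each for 24 h or 144 h. All groups held the same lines, RNA of many spheroids was pooled per library, and the culture was older at 144 h than at 24 h, so exposure for 144 h was set against untreated spheroids of the same age. Per the study, the replicates of a group were independent experiments; the labels number them without saying whether equal numbers in different groups mark the same experiment.

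Microtubules are hollow polymers of α- and β-tubulin heterodimers that carry cargo, shape the cell and form the mitotic spindle; in hepatocytes they also serve the secretion of plasma proteins and lipoproteins. Vertebrates encode each subunit in several genes, called isotypes, whose products co-assemble and differ mostly at the C-terminal tail. TUBA1B, TUBA1C, TUBB and TUBB4B are the broadly used isotypes of dividing cells, TUBA1A, TUBB2A and TUBB3 are best known from neurons, TUBA4A is enriched in brain, muscle and platelets, and TUBB6 is a broadly expressed, more divergent isotype. Cells also adjust tubulin mRNAs to the amount of free heterodimer: TTC5 binds the first residues of a nascent tubulin chain on the ribosome and, through SCAPER and the CCR4-NOT complex, has the mRNA degraded.

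The part of each mRNA that encodes these first residues is shown for all 9 members, because they are the target of that control in both subunits. The sequences are the first 36 bases (12 codons) of the coding sequence of the MANE Select transcript in GENCODE v44 (GRCh38), with the first 4 codons in capitals.
TUBA1A: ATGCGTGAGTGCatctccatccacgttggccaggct
TUBA1B: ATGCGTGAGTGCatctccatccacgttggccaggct
TUBA1C: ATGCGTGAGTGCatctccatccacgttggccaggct
TUBA4A: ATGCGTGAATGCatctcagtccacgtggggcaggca
TUBB: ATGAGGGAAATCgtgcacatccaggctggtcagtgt
TUBB2A: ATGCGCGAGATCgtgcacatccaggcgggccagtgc
TUBB3: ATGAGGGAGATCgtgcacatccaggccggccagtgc
TUBB4B: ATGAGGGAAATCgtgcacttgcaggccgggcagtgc
TUBB6: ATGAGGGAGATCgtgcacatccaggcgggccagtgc
TUBA1A, TUBA1B and TUBA1C were identical over all 36 bases and TUBA4A had its own form of the capitals. Among the β-tubulins, TUBB shared its 12 capital bases with TUBB4B, and TUBB3 shared its 12 with TUBB6, while TUBB2A had its own form. These forms differ in synonymous codons only: the capitals encode MREC in every α-tubulin gene shown and MREI in every β-tubulin gene shown.

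Every member has 4 exons in its MANE Select transcript. TUBA1B (chr12:49127782-49131395, minus strand), TUBA1A (chr12:49184795-49189080, minus strand) and TUBA1C (chr12:49265082-49274600, plus strand) lie near each other on chromosome 12, and TUBA4A lies at chr2:219249710-219253918 on the minus strand. TUBB (chr6:30720352-30725422, plus strand) and TUBB2A (chr6:3153666-3157544, minus strand) are on chromosome 6, TUBB4B is at chr9:137241287-137243707 on the plus strand, TUBB3 at chr16:89923342-89936097 on the plus strand and TUBB6 at chr18:12308241-12326616 on the plus strand. Coding sequences of the 4 α-tubulin genes were 84.4% to 97.2% identical, those of the 5 β-tubulin genes 80.9% to 87.7%, and α- against β-tubulin genes 53.2% to 55.4%.

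This likeness limits how far reads can be assigned. Of all 100-base stretches of the TUBA1B transcript, 37.2% also occur in another α- or β-tubulin gene or pseudogene, against 21.2% for TUBA1A, 12.3% for TUBA1C, 5.42% for TUBB, 3.01% for TUBB4B, 1.95% for TUBA4A and 0% for TUBB6. For TUBB2A the share was 55.6%, most of it with TUBB2B (53.7%). For TUBB3 it was 92.5%, all of it shared with an annotated readthrough transcript that starts at its upstream neighbour MC1R, so reads of TUBB3 and of that readthrough cannot be told apart. By this measure TUBB3, TUBB2A and TUBA1B were the least distinct members and TUBA4A, TUBB4B and TUBB6 the most distinct. TUBA1A, the lowest in level, shared 17.9% of its stretches with TUBA1B, the highest.

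Levels are given as FPKM, fragments per kilobase of transcript scaled to the mapped fragments of a library, which are per length and can be compared between genes. Depth was estimated from the steps between low FPKM values at 18600000 fragments per library (18200000 to 19100000), so the lowest value of any member, 2.85 FPKM for TUBA1A, corresponds to about 73 fragments. Hepatocyte markers summed to between 20250 and 26336 FPKM in every library, with 13 of 14 above a mean of 0.5 FPKM in every group (CYP7A1 was the exception). Of 15 stellate cell markers, 4 had a group mean below 0.5 FPKM in untreated spheroids at 24 h, 8 at 144 h and 9 with TPN at 144 h. Over time in untreated spheroids 8 of 10 tested markers of these cells fell and 1 rose, with a median log2 fold change of -1.96. Of all genes tested, 52.4% fell and 20.1% rose. The collagen COL1A1 averaged 15.1 FPKM at 24 h and 1.92 FPKM at 144 h, and the actin ACTA2 57.8 and 47.9 FPKM. The growth factor receptor PDGFRB had 3.10 and 3.08 FPKM. LOX, the collagen cross-linking enzyme and the 1 that rose, had 56.6 and 146.4 FPKM. In such bulk RNA, fewer cells of a type and less RNA per cell cannot be told apart.

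**Figure D1:**
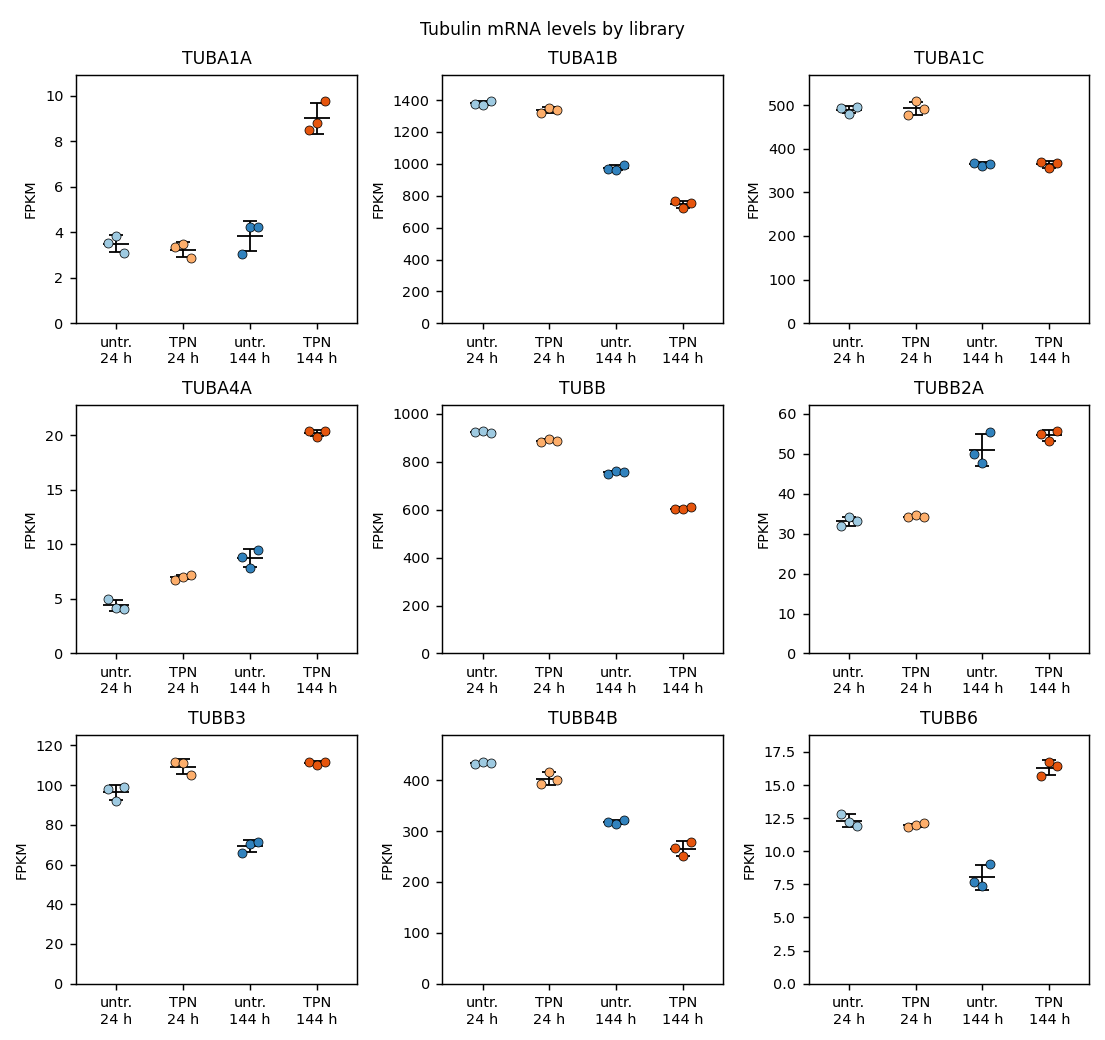
FPKM of each tubulin gene in the 12 libraries, 1 panel per gene with its own axis starting at 0; points are libraries, horizontal lines group means and bars SD (n = 3). TUBA1A, TUBA4A, TUBB3 and TUBB6 are highest or level with the highest in TPN at 144 h, while TUBA1B, TUBB and TUBB4B are lowest there.

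The members spanned a wide range of levels. In untreated spheroids at 24 h the order of mean FPKM was TUBA1B (1379 ± 12.3, SD, n = 3), TUBB (923.0 ± 4.32), TUBA1C (489.5 ± 8.75), TUBB4B (433.7 ± 2.71), TUBB3 (96.3 ± 3.75), TUBB2A (33.1 ± 1.05), TUBB6 (12.3 ± 0.474), TUBA4A (4.4 ± 0.481) and TUBA1A (3.49 ± 0.382). No neighbours in that order overlapped in any of their 3 libraries. The first 6 ranks were held by these genes in all 4 groups. At 144 h TUBA4A passed TUBB6, with overlapping values in untreated spheroids (8.74 ± 0.833 against 8.02 ± 0.919 FPKM) and separate ones with TPN (20.2 ± 0.274 against 16.3 ± 0.563 FPKM). TUBA1A remained the lowest in all 4 groups.

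Which tubulin mRNAs differed after long exposure was asked by setting TPN at 144 h against untreated spheroids at 144 h. TUBA1A, TUBA4A, TUBB3 and TUBB6 rose, by 1.61- to 2.35-fold on the linear scale of group means, while TUBA1B, TUBB and TUBB4B, 3 of the 4 most abundant members, fell by 16.3% to 23.3%. TUBA1C, the other abundant member, and TUBB2A did not pass the test. A gene was called at a Benjamini-Hochberg adjusted p below 0.05 in limma over 11713 genes, and was a DEG where its log2 fold change also exceeded 0.58 in size. Thus 4 of 9 members were called higher, against 24.2% of all genes tested, and 3 of 9 lower, against 28.3%. With 4 of 9 members against 9.48% of all genes, DEGs were the larger part of the calls. The median log2 fold change was 0.10 over the members and -0.02 over all genes tested.

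TUBA1A, the isotype of migrating and postmitotic neurons, had 3.06, 4.25 and 4.21 FPKM in the untreated libraries at 144 h and 8.48, 8.78 and 9.76 FPKM with TPN. The lowest exposed library was far above the highest untreated one. Its log2 fold change was 1.22 ± 0.12 (SE, limma, adjusted p = 2.1e-06). TUBA4A, whose α-chain lacks the encoded C-terminal tyrosine of the other 3 α-tubulins, had 8.88, 7.85 and 9.50 FPKM untreated and 20.3, 19.9 and 20.3 FPKM with TPN. The exposed libraries lay close together and far above the untreated ones. The log2 fold change was 1.2 ± 0.076 (limma, adjusted p = 2.6e-08).

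TUBB6 had 7.65, 7.35 and 9.07 FPKM untreated at 144 h and 15.7, 16.8 and 16.4 FPKM with TPN. Its groups did not overlap, and its log2 fold change was 1.02 ± 0.065 (limma, adjusted p = 2.8e-08). TUBB3, the β-isotype used as a marker of neurons, had 65.9, 70.5 and 71.3 FPKM untreated and 111.9, 110.4 and 111.7 FPKM with TPN. All exposed libraries were above all untreated ones, with a log2 fold change of 0.68 ± 0.038 (limma, adjusted p = 6.6e-09). MC1R, the melanocortin receptor gene upstream of TUBB3 and looked at after the shared sequence was seen, moved the same way: its untreated libraries had 6.46, 6.34 and 5.15 FPKM and the exposed ones 11.4, 10.8 and 11.1 FPKM, a log2 fold change of 0.88 ± 0.074 (limma, adjusted p = 3.6e-07). Over time the calls of MC1R and TUBB3 differed. With TPN from 24 h to 144 h, MC1R rose by 0.38 ± 0.074 (limma, adjusted p = 0.00035), against 0.03 for TUBB3, which did not pass. Under median ratio scaling and quantile normalization TUBB3 passed as a rise, of 0.22 and 0.20. In untreated spheroids over the same time TUBB3 fell (-0.48). MC1R stood at -0.17 ± 0.074 there and did not pass the test (limma, adjusted p = 0.058). The part of readthrough transcripts in the TUBB3 values was not tested.

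TUBA1B, the main α-tubulin gene of these cells, had 970.5, 963.5 and 992.4 FPKM untreated at 144 h and 767.2, 723.9 and 752.4 FPKM with TPN. TUBB, the main β-tubulin gene, had 750.9, 762.7 and 756.8 FPKM untreated and 601.6, 601.4 and 610.6 FPKM with TPN. TUBB4B had 316.9, 314.2 and 321.1 FPKM untreated and 267.0, 250.6 and 279.3 FPKM with TPN. In each of these 3 genes every exposed library was below every untreated one. With 3 libraries a group such separation is no test by itself: at 24 h these genes were separate too and did not pass. The log2 fold changes were -0.38 ± 0.027 for TUBA1B (limma, adjusted p = 5.8e-08), -0.32 ± 0.021 for TUBB (adjusted p = 3.6e-08) and -0.26 ± 0.036 for TUBB4B (adjusted p = 4.0e-05), all below the size required of a DEG.

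TUBA1C had 367.6, 359.5 and 365.4 FPKM untreated and 370.6, 355.2 and 367.0 FPKM with TPN. The groups overlapped, and the 95% interval of the log2 difference ran from -0.06 to 0.06, so a change of the size seen in TUBA1B lay outside it. TUBB2A had 49.9, 47.6 and 55.4 FPKM untreated and 55.0, 53.1 and 55.6 FPKM with TPN, a log2 fold change of 0.10 ± 0.047 (limma, adjusted p = 0.086). Untreated replicate 3 overlapped the exposed libraries, and without it the value was 0.16 and passed the test (limma, adjusted p = 0.0036). Quantile normalization also brought TUBB2A past it, at 0.13 (adjusted p = 0.023).

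**Figure D2:**
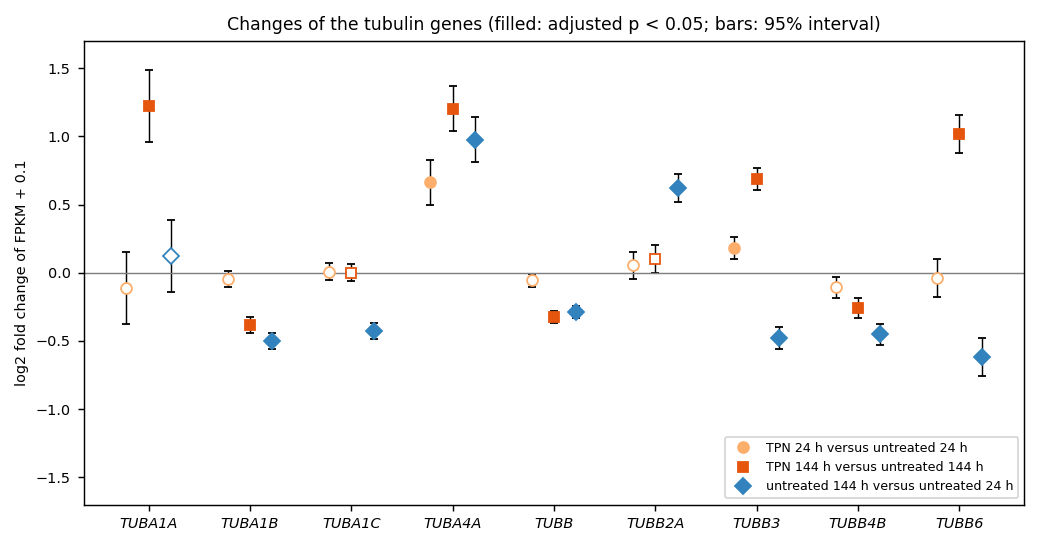
Log2 fold changes of FPKM + 0.1 for the 9 tubulin genes in 3 contrasts, with bars for the 95% interval from limma; filled symbols passed an adjusted p of 0.05. At 144 h TPN moved TUBA1A (1.22), TUBA4A (1.2), TUBB6 (1.02) and TUBB3 (0.68) up and TUBA1B (-0.38), TUBB (-0.32) and TUBB4B (-0.26) down; at 24 h TUBA4A and TUBB3 were the filled symbols.

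After 24 h of exposure, TUBA4A and TUBB3 had risen and no other member passed the test. TUBA4A had 4.95, 4.19 and 4.06 FPKM untreated and 6.77, 7.05 and 7.17 FPKM with TPN, so that all 3 exposed libraries were above all untreated ones. This was a 1.59-fold difference of means, with a log2 fold change of 0.66 ± 0.076 (limma, adjusted p = 7.8e-05), and it made TUBA4A the 1 DEG among the members (0.914% of all genes tested were DEGs). On the scale of FPKM + 1, which shrinks low values, it no longer exceeded the size required. TUBB3 had 98.1, 92.0 and 98.8 FPKM untreated and 111.7, 111.0 and 104.8 FPKM with TPN, again without overlap, and a log2 fold change of 0.18 ± 0.038 (limma, adjusted p = 0.0072). MC1R differed by 0.34 ± 0.074 on the same scale (limma, adjusted p = 0.0088).

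These 2 of 9 members called higher compare with 5.04% of all genes, and the 0 of 9 called lower with 5.46%. At an unadjusted p under 0.05, TUBB and TUBB4B were lower. TUBB4B had 431.2, 436.6 and 433.3 FPKM untreated and 391.6, 417.1 and 400.5 FPKM with TPN, without overlap, and missed the threshold (log2 fold change -0.11 ± 0.036, limma, adjusted p = 0.077). It passed with libraries scaled to the same total, with quantile normalization, in a model of the groups at 24 h alone, and without TPN 144 h replicate 2 or 3 (adjusted p 0.032 to 0.046). TUBB missed it with -0.06 ± 0.021 (limma, adjusted p = 0.12). TUBA1A, TUBA1B, TUBA1C, TUBB2A and TUBB6 had log2 fold changes between -0.11 and 0.05.

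The difference between the TPN contrasts at 144 h and 24 h was tested itself. It passed for 7 of 9 members, 4 in the upward direction (14.1% of all genes) and 3 in the downward one (16.3%). The difference on the log2 scale was 1.33 ± 0.17 for TUBA1A (limma, adjusted p = 9.1e-05), 1.06 ± 0.092 for TUBB6 (4.2e-06), 0.54 ± 0.11 for TUBA4A (0.0021) and 0.50 ± 0.053 for TUBB3 (1.7e-05). It was -0.34 ± 0.038 for TUBA1B (limma, adjusted p = 2.7e-05), -0.27 ± 0.030 for TUBB (2.9e-05) and -0.15 ± 0.050 for TUBB4B (0.036). TUBA1A and TUBB6 were the members whose difference exceeded 0.58, against 5.87% of all genes. The TUBB4B difference was lost when any 1 of 9 libraries was left out (adjusted p up to 0.088) and held without TPN 24 h replicate 1, untreated 144 h replicate 2 or TPN 144 h replicate 3.

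How tubulin mRNAs moved in culture without TPN was examined between untreated spheroids at 24 h and 144 h. TUBA4A and TUBB2A rose, TUBA1B, TUBA1C, TUBB, TUBB3, TUBB4B and TUBB6 fell, and TUBA1A did not pass the test. The 2 of 9 called higher compare with 20.1% of all genes and the 6 of 9 called lower with 52.4%, so a fall was the commoner call in the whole table. Over all genes tested the median change was -0.18 on the log2 scale, and changes are therefore also given relative to it. Under median ratio scaling the share of calls that were higher was 49.1% in place of 27.8%, and under quantile normalization 43.4%. The direction of every called member was the same under each scaling.

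TUBA4A rose from 4.95, 4.19 and 4.06 FPKM at 24 h to 8.88, 7.85 and 9.50 FPKM at 144 h without overlap, a log2 fold change of 0.98 ± 0.076 (limma, adjusted p = 7.0e-08), or 1.16 relative to the median. TUBB2A rose from 32.0, 34.1 and 33.1 FPKM to 49.9, 47.6 and 55.4 FPKM, also without overlap, by 0.62 ± 0.047 (limma, adjusted p = 4.8e-08), or 0.80 relative to the median. Among those that fell, TUBB6 moved most, from 12.8, 12.2 and 11.9 FPKM to 7.65, 7.35 and 9.07 FPKM (-0.62 ± 0.065, limma, adjusted p = 1.4e-06, or -0.43 relative to the median). TUBA4A, TUBB2A and TUBB6 were the 3 DEGs of this comparison, in which 19% of all genes were DEGs. Relative to the median, TUBA1B stood at -0.32, TUBB3 at -0.29, TUBB4B at -0.27, TUBA1C at -0.24 and TUBB at -0.10. TUBA1A differed by 0.12 ± 0.12 (limma, adjusted p = 0.38) and passed without untreated 144 h replicate 1, at 0.27 (adjusted p = 0.032), the library with its lowest value in that group.

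The untreated libraries at 144 h enter both this contrast and the TPN contrast at 144 h, so low values in them move both, in opposite directions. The exposed spheroids can be followed over time without them. From 24 h to 144 h of TPN, TUBA1A rose from 3.36, 3.48 and 2.85 FPKM to 8.48, 8.78 and 9.76 FPKM (1.45 ± 0.12, limma, adjusted p = 9.7e-08). TUBA4A rose by 1.51 ± 0.076 (adjusted p = 4.9e-10), TUBB2A by 0.67 ± 0.047 (adjusted p = 1.4e-08) and TUBB6 by 0.44 ± 0.065 (adjusted p = 2.9e-05), the last from 11.9, 11.9 and 12.1 FPKM to 15.7, 16.8 and 16.4 FPKM. TUBB3 had 111.7, 111.0 and 104.8 FPKM at 24 h and 111.9, 110.4 and 111.7 FPKM at 144 h. These overlapped, with a log2 difference of 0.03 ± 0.038 (limma, adjusted p = 0.51) that passed as a rise under median ratio scaling (0.22) and quantile normalization (0.20). TUBA1B fell by 0.84, TUBB4B by 0.60, TUBB by 0.55 and TUBA1C by 0.43 on the log2 scale, each past the test. In all, 4 of 9 were higher (24.2% of all genes) and 4 of 9 lower (52%), where the median of all genes was -0.18, and 5 were DEGs (26.7%).

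The sum over the 4 α-tubulin genes was 1877 ± 19.9 FPKM in untreated spheroids at 24 h (SD, n = 3), 1839 ± 33.6 with TPN at 24 h, 1352 ± 18.3 untreated at 144 h and 1141 ± 30.3 with TPN at 144 h. The sum over the 5 β-tubulin genes was 1498 ± 3.15, 1446 ± 20.5, 1202 ± 11.2 and 1052 ± 20.6 FPKM in the same order. With TPN at 144 h both sums were below every untreated library, by 15.6% for α and 12.5% for β (two-sided exact permutation p = 0.1 each, the smallest that 3 against 3 libraries can give). The α sum fell with TUBA1B (means of 975.5 FPKM untreated and 747.8 FPKM with TPN), while TUBA1C stayed level (364.2 and 364.3 FPKM). The β sum fell with TUBB and TUBB4B, although TUBB3 rose from a mean of 69.2 to 111.3 FPKM. TUBA1A, TUBA4A and TUBB6, which also rose, were low in level and moved the sums little. At 24 h the α sums overlapped (-2.03%, exact permutation p = 0.2) and the β sums did not (-3.47%, exact permutation p = 0.1).

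**Figure D3:**
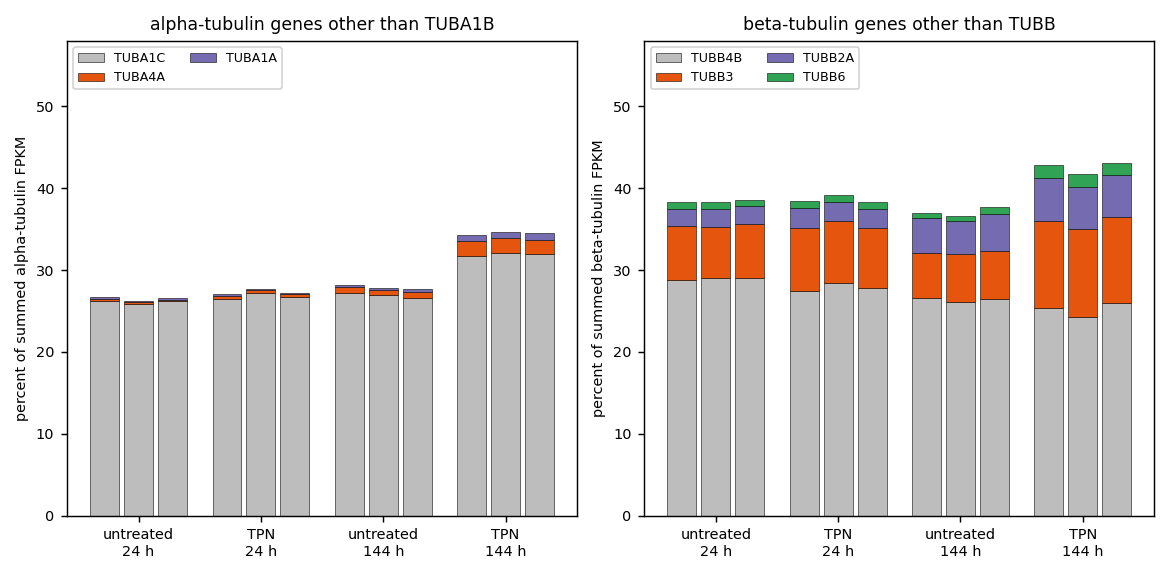
Shares of the summed α-tubulin (left) and β-tubulin FPKM (right) in each of the 12 libraries, 1 bar per library, for the genes other than TUBA1B and TUBB, which make up the rest to 100%. In TPN at 144 h the stacked shares are the tallest in both families.

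Within these sums the make-up of isotypes differed. TUBA1B held 71.9%, 72.2% and 72.4% of the α sum in untreated spheroids at 144 h and 65.8%, 65.3% and 65.5% with TPN. TUBA1C, whose level did not pass the test, held 26.9% ± 0.295 and 31.9% ± 0.151 (SD, n = 3). TUBA1A and TUBA4A together held 0.930% ± 0.061 untreated and 2.56% ± 0.078 with TPN. In the β family TUBB held 62.9% ± 0.545 untreated and 57.5% ± 0.719 with TPN, and TUBB4B 26.4% ± 0.243 and 25.2% ± 0.881. TUBB3 went from 5.76% ± 0.192 to 10.6% ± 0.155, TUBB2A from 4.24% ± 0.305 to 5.19% ± 0.043 and TUBB6 from 0.667% ± 0.071 to 1.55% ± 0.069. None of these shares overlapped between the groups at 144 h (two-sided exact permutation p = 0.1 each). In all, 59 of 64 such comparisons of sums, shares and ratios over the 4 contrasts gave this smallest p, which cannot pass 0.05.

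Of 13 other tubulin genes listed, 7 had a mean below 0.5 FPKM in 3 or all 4 groups and were not tested. Among them TUBA3C, TUBA3D and TUBA3E had at most 0.04 FPKM, and TUBB4A and TUBB8 stayed below 0.25 FPKM in every library. TUBA8 was between 0.24 and 0.49 FPKM. TUBAL3 was between 0.04 and 0.42 FPKM in 9 libraries and had 1.18, 1.11 and 0.95 FPKM with TPN at 144 h. Of the 6 tested, 1 rose with TPN at 144 h and 5 fell. TUBB2B, the near copy of TUBB2A, had 14.8, 16.2 and 14.5 FPKM untreated and 23.3, 25.4 and 23.9 FPKM with TPN (0.67 ± 0.10, limma, adjusted p = 7.8e-05), and had risen from a mean of 3.93 FPKM at 24 h in untreated spheroids (1.93 ± 0.10, adjusted p = 1.2e-09). TUBB1, the β-isotype of platelets, fell with TPN at 144 h by 0.63 ± 0.098 from a mean of 4.34 FPKM (adjusted p = 0.00011), after a rise of 0.95 over time in untreated spheroids. TUBG1, the γ-tubulin that nucleates microtubules, fell from 179.6 to 134.6 FPKM with TPN at 144 h (-0.42 ± 0.029, adjusted p = 6.0e-08). Outside that list the table held TUBB8B and TUBA4B. TUBB8B, a close relative of TUBB8, had 1.3, 1.68 and 1.07 FPKM untreated at 144 h and 0.45, 0.93 and 0.41 FPKM with TPN, without overlap. It fell by 1.11 ± 0.24 on the log2 scale (limma, adjusted p = 0.0018), as a DEG, and passed the test under each of 21 alternatives, but on the scale of FPKM + 1 it did not reach the size of a DEG. TUBA4B, the gene that shares stretches with TUBA4A, stayed below 1 FPKM in every library and differed by 0.12 ± 0.35 (adjusted p = 0.79).

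Genes of the machinery that folds tubulin changed by small amounts with TPN at 144 h. The counts of this and the next lists in that contrast stand against 24.2% of all genes called higher and 28.3% called lower. The chaperonin CCT, which folds the chains, had 1 of 8 subunits higher and 3 lower with a median log2 fold change of -0.04, the lowest being CCT2 (-0.20, adjusted p = 1.1e-05) and the 1 that rose TCP1 (0.07, adjusted p = 0.0495). Prefoldin, which hands chains to CCT, had 1 of 6 higher (PFDN1, 0.12) and 1 lower (VBP1, -0.20). Of 7 tubulin folding cofactors, which join α and β into the heterodimer, 3 fell, with ARL2 at -0.28 and TBCD at -0.17. All these values passed an adjusted p of 0.05 in limma, and none reached the size of a DEG. TCP1 missed it with libraries scaled to the same total (adjusted p = 0.098).

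TTC5, the factor that binds the residues encoded by the sequences shown above, had 2.26, 2.14 and 2.01 FPKM untreated at 144 h and 2.01, 2.23 and 2.13 FPKM with TPN. The groups overlapped, with a log2 difference of -0.01 ± 0.074 (limma, adjusted p = 0.93) and a 95% interval from -0.17 to 0.15. Over time in untreated spheroids it fell from 3.33, 3.43 and 3.6 FPKM (-0.67 ± 0.074, adjusted p = 2.0e-06). With TPN at 144 h, 3 of the 7 genes of this control fell (28.3% of all genes), among them the CCR4-NOT subunits CNOT10 (-0.38, limma, adjusted p = 0.0013) and CNOT11 (-0.35, adjusted p = 5.6e-07). Over time in untreated spheroids 3 rose, including the catalytic subunit CNOT8 (0.52) and SCAPER (0.39), and 2 fell, TTC5 and CNOT1 (-0.20), against 20.1% and 52.4% of all genes. CNOT1 missed the threshold under median ratio scaling and quantile normalization.

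Of the enzymes that modify tubulin after it is made, 18 of 22 were tested, and 2 rose and 3 fell with TPN at 144 h, smaller shares than the 24.2% and 28.3% of all genes. TTL, which puts the C-terminal tyrosine back on α-tubulin, rose by 0.18 and the glycylase TTLL3 by 0.28, the latter short of the threshold with libraries scaled to the same total and with quantile normalization. HDAC6, a tubulin deacetylase, fell by 0.31 and AGBL3, a carboxypeptidase that trims the tail, by 0.49 on the log2 scale. The γ-tubulin ring complex, the template for new microtubules, had 4 of 11 lower (28.3% of all genes), with TUBG1 lowest and NEDD1 at -0.26, and a median of -0.16.

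Genes for proteins that destabilize, sever or stabilize microtubules or track their plus ends included DEGs. Of 11 tested genes for destabilizing and severing proteins, 5 fell with TPN at 144 h, against 28.3% of all genes. Stathmin 1 (STMN1), which binds free heterodimers, went from a mean of 183.0 to 96.7 FPKM (-0.92 ± 0.033, limma, adjusted p = 1.3e-10), and the kinesin KIF18A fell by 0.72. Of 16 tested genes for stabilizing and plus-end proteins, 8 rose and 2 fell, against 24.2% and 28.3% of all genes, with a median of 0.16. MAPRE3 (EB3), a plus-end tracking protein, went from a mean of 0.683 to 2.64 FPKM (1.82 ± 0.17, adjusted p = 1.1e-06) and MAP1B, a microtubule-associated protein of growing axons, from 2.70 to 5.12 FPKM (0.90 ± 0.097, adjusted p = 4.2e-06). CKAP5, a microtubule polymerase, fell by 0.35 and CAMSAP3, which caps minus ends, by 0.25.

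**Figure D4:**
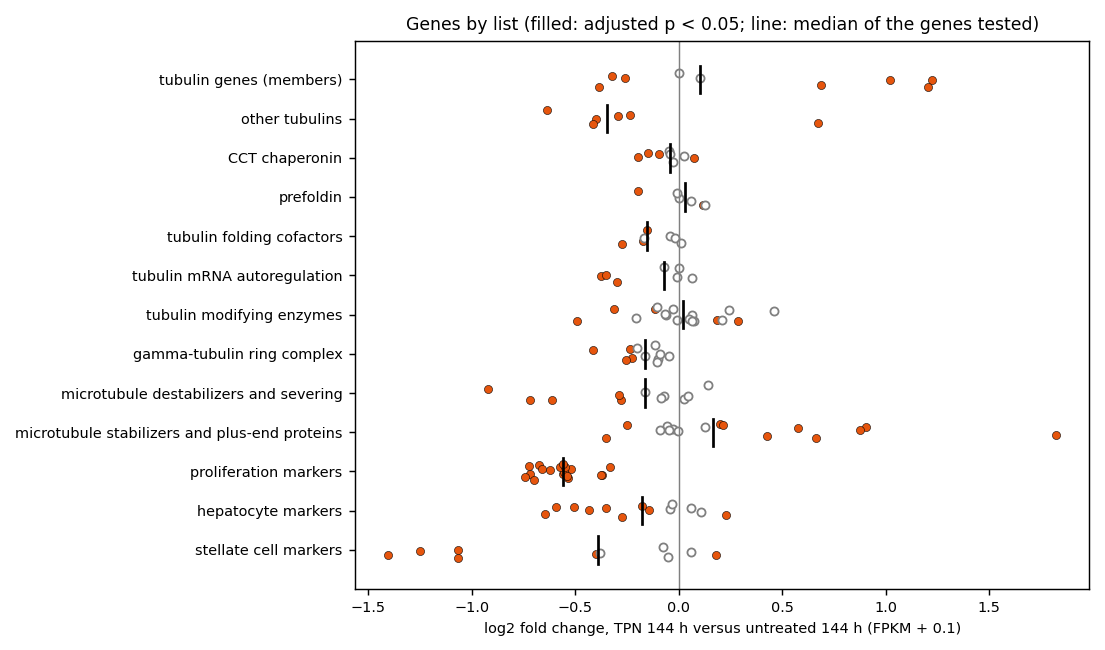
Log2 fold changes (FPKM + 0.1) in TPN at 144 h against untreated spheroids at 144 h for the genes of each list, 1 point per gene tested; filled points passed an adjusted p of 0.05 and black lines are medians. The members lie on both sides of 0, all 18 proliferation markers lie below it, and most genes of folding lists lie close to it.

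Over time in untreated spheroids, the lists are described against a median of -0.18 over all genes, of which 20.1% were called higher and 52.4% lower. Of the CCT subunits 7 of 8 fell, with CCT3 at -0.41 and CCT5 at -0.29, and of prefoldin 4 of 6, with PFDN6 and VBP1 at -0.31 each. Folding cofactors fell in 3 of 7, with TBCD at -0.58 and TBCB at -0.28. In the γ-tubulin ring complex 10 of 11 fell, with the core subunits TUBGCP5 at -0.44 and TUBGCP3 at -0.41. Modifying enzymes rose in 4 of 18, led by TTLL3 (0.54) and the deglutamylase AGTPBP1 (0.37), and fell in 9, led by AGBL3 (-0.77) and TPGS1 (-0.72), a subunit of a polyglutamylase. Destabilizing and severing genes rose in 1 of 11, the severing subunit KATNA1 (0.31), and fell in 9, led by FIGNL1 (-0.88) and KATNAL1 (-0.61). Stabilizing and plus-end genes rose in 6 of 16, led by MAP1B (0.69) and CLIP2 (0.59), and fell in 5, led by MAPRE1 (-0.57) and CKAP5 (-0.28). All values named here passed an adjusted p of 0.05 in limma. These counts depended on scaling. Under median ratio scaling, with 3845 genes higher and 3992 lower in place of 2360 and 6138, 4 of 8 CCT subunits and 3 of 11 ring complex genes fell, prefoldin had 2 higher and 2 lower, folding cofactors 3 higher and 2 lower, destabilizing genes 1 higher and 5 lower, stabilizing genes 9 higher and 1 lower, and modifying enzymes 5 higher and 7 lower. TUBGCP5 and CKAP5 missed the threshold under that scaling and under quantile normalization. The directions of the genes named did not change under any scaling run.

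At 24 h of TPN 1 of 7 folding cofactors (TBCE) and 3 of 16 stabilizing genes (MAPRE3, MAPRE2 and MAP7D1) were higher and 1 of 11 destabilizing genes (STMN1) was lower, against 5.04% and 5.46% of all genes. The lists of other tubulins, CCT, prefoldin, autoregulation, modifying enzymes and the ring complex held no call in limma, with between 0 and 3 genes each at an unadjusted p under 0.05. These counts also moved with scaling. With libraries scaled to the same total, 0 folding cofactors and 2 stabilizing genes were higher. Under quantile normalization 0 folding cofactors, 4 stabilizing genes and 1 CCT subunit were higher.

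Proliferation markers fell with TPN at 144 h, as TUBA1B, TUBB and TUBB4B did, while TUBA1C did not pass the test. All 18 fell at 144 h, with a median log2 fold change of -0.56, and KIF11 (-0.72) and CCNB2 (-0.74) moved most; their summed level was 972.8 to 999.2 FPKM untreated and 675.1 to 699.7 FPKM with TPN. At 24 h, when none of these 4 tubulin genes passed, 12 of 18 fell, against 5.46% of all genes, with a median of -0.15. Over time in untreated spheroids all 18 fell, against 52.4% of all genes. Their median was -0.63, against -0.18 over all genes, and RRM2 (-1.07) and PCNA (-0.86) were lowest. The part of proliferation in the fall of TUBA1B, TUBB and TUBB4B was not tested.

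Cell type markers also moved. Of 13 hepatocyte markers tested, 8 fell and 1 rose with TPN at 144 h (ALB by -0.65, FGA by 0.23), and the summed level was 25088 to 26336 FPKM untreated and 22470 to 24115 FPKM with TPN. At 24 h of TPN 6 hepatocyte markers were lower and 0 higher, against 5.46% and 5.04% of all genes. Stellate markers had 1 lower and 1 higher at 24 h. Of 10 stellate cell markers tested, 5 fell and 1 rose with TPN at 144 h. COL3A1 stood at -1.40 from a mean of 0.503 to 0.127 FPKM, low values near the 0.1 added before the log. COL1A1 stood at -1.25 from a mean of 1.92 to 0.747 FPKM, and LOX, the 1 that rose, at 0.18. The summed stellate level was 217.9 to 228.6 FPKM untreated and 236.8 to 239.2 FPKM with TPN, most of it LOX (means of 146.4 and 165.6 FPKM), and POSTN and LUM had at most 0.02 FPKM in the untreated libraries at 144 h and were listed at 0 in the exposed ones. Over time in untreated spheroids 8 stellate markers fell and 1 rose, against 52.4% and 20.1% of all genes, with a median of -1.96. COL1A1 (-2.93) fell most, followed by VIM (-2.67), an intermediate filament gene of mesenchymal cells, from 15.6 to 2.44 FPKM, and LOX rose by 1.37. The summed stellate level, 196.5 to 202.7 FPKM at 24 h, was higher at 144 h although 8 markers fell. LOX, the 1 called higher, went from a mean of 56.6 to 146.4 FPKM, so this sum mostly followed LOX. The part of cell numbers in the values of TUBB6, TUBB3 and TUBA1A was not tested.

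Stretches before the start sites are shown for the 7 members that passed the test with TPN at 144 h, first TUBA1B, TUBB and TUBB4B, which fell, and then TUBA1A, TUBA4A, TUBB3 and TUBB6, which rose. Each is the 150 bases from 160 to 11 before the start of the MANE Select transcript, on the strand of the gene, from the RefSeq promoter table (GRCh38.p14). Capitals mark 3 groups of letters on either strand. The CCAAT box was searched as CCAAT or its complement ATTGG. The TATA-type element was searched as TATAA or its complement TTATA. The GC box was searched as GGGCGG or its complement CCGCCC. Adjoining or overlapping matches run together.
TUBA1B, chr12:49131406-49131555, minus strand: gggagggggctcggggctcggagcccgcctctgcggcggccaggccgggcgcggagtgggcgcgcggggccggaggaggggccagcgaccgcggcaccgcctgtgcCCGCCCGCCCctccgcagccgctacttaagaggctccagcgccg
TUBB, chr6:30720192-30720341, plus strand: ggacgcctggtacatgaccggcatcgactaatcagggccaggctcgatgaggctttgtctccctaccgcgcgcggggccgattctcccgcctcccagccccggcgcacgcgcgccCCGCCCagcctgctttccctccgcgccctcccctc
TUBB4B, chr9:137241127-137241276, plus strand: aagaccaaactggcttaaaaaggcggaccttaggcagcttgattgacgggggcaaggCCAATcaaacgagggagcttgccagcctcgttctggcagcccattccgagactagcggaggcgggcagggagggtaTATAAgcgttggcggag
TUBA1A, chr12:49189091-49189240, minus strand: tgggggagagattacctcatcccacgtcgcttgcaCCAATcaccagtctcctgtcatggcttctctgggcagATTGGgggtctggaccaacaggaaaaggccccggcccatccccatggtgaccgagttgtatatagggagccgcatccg
TUBA4A, chr2:219253929-219254078, minus strand: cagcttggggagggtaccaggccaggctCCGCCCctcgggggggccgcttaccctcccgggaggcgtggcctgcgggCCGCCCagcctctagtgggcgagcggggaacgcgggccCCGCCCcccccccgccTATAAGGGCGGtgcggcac
TUBB3, chr16:89923182-89923331, plus strand: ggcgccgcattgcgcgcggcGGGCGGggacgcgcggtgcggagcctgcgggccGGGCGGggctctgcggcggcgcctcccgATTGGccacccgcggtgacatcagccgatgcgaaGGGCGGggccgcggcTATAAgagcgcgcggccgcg
TUBB6, chr18:12308081-12308230, plus strand: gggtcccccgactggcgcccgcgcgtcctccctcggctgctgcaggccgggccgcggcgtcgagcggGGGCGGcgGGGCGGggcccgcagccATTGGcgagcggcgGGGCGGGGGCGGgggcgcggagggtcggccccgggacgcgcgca
The CCAAT box stood in the stretches of TUBA1A, TUBA1C, TUBB3, TUBB4B and TUBB6 and in 23.8% of the same stretches of all 35116 listed promoters. The TATA-type element was found for TUBA1C, TUBA4A, TUBB2A, TUBB3 and TUBB4B (12.4% of all) and the GC box for 7 of 9, all except TUBA1A and TUBB4B (36% of all). Of the 3 members that fell, TUBA1B and TUBB held the GC box and TUBB4B the other 2 elements. Of the 4 that rose, TUBA4A, TUBB3 and TUBB6 held the GC box and TUBA1A, TUBB3 and TUBB6 the CCAAT box. TUBA4A and TUBB3 held the TATA-type element in the letters searched. The stretch of TUBA1A holds the letters tatata, which this search does not match, so other TATA forms were not counted. These matches describe letters and are not measured binding sites.

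Across the 12 libraries the likeness of members was measured by Pearson's r of log2(FPKM + 0.1). These values share libraries and groups and are descriptions with n = 12. Among the 36 pairs, r was highest for TUBA1B with TUBB (0.991), TUBA1B with TUBB4B (0.990) and TUBB with TUBB4B (0.979). Next came TUBA1C with TUBB4B (0.930) and with TUBA1B (0.922), TUBB3 with TUBB6 (0.895) and TUBA1A with TUBA4A (0.875). It was lowest for TUBA1C with TUBB2A (-0.968) and TUBA4A with TUBB (-0.965). Of the other genes tested, the closest to TUBA1B were TRA2B and ALDH7A1 (0.998 both) and the closest to TUBB were PCYT2 (0.998) and CHTF18 (0.997). APEH and PPP2CA (0.996 both) were closest to TUBB4B, FAM136A (0.995) and SPR (0.994) to TUBA1C, and DNAJC12 (0.993) and HRC (0.991) to TUBB2A. TUBA4A was nearest to ANGPTL8 (0.994) and LGALS3 (0.991), TUBA1A to PLA2G2A (0.977) and TGFB1 (0.976), TUBB3 to ANKRD13B (0.984) and ABCC3 (0.981), and TUBB6 to MAPKAPK2 (0.979) and ICAM1 (0.972).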

How the data were processed

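RNA of 12 libraries was sequenced on the DNBSEQ platform. The authors filtered reads with SOAPnuke v1.5.2, aligned them to GRCh38.p13 with HISAT2 v2.0.4, mapped them to transcripts with Bowtie2 v2.2.5 and estimated expression with RSEM v1.2.8, which divides shared reads between similar transcripts. The deposited values are FPKM per gene and library, rounded to 2 decimals. The study's test needs counts, not used here. Of 16725 rows, 20 without values were left out. Genes with a mean of at least 0.5 FPKM (11713) entered a limma 3.58.1 fit (R 4.3.3) of log2(FPKM + 0.1) (4 groups, eBayes with an intensity trend, Benjamini-Hochberg adjustment over all genes tested), so a fold change understates that of low genes. On simulated data of the TPN contrast at 144 h, 193 of 200 changed genes among 11670 tested were recovered with 5 false calls. The changes put in were larger than those of TUBA1B, TUBB, TUBB4B and TUBB3, with noise independent between genes. Recovery of changes as small as theirs was thus not tested. Sums and shares were compared with two-sided exact permutation tests. The members and gene lists were chosen with earlier results of these data known. All members were named; of each list, up to 2 genes per direction with the largest called change in TPN 144 h against untreated 144 h and in untreated 144 h against 24 h; and per member the 2 other genes with the highest r. Deposited coordinates of TUBB mix a scaffold and chromosome 6, so GENCODE v44 positions were used. Python 3.11.15, numpy 2.4.6, pandas 2.3.3, scipy 1.17.1, Biopython 1.88 and matplotlib 3.10.9 served for the rest. Alternatives changed the pseudocount, filter, scaling, variance prior, libraries in the model and replicate block, and left out each library in turn.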

Additional observations from a re-analysis of the deposited data

Results flagged for a closer look

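In 7 of 9 tubulin genes the change with TPN at 144 h was unlike that at 24 h by a test of the difference itself (limma, adjusted p below 0.05 over all genes tested). The log2 difference, 144 h minus 24 h, was 1.33 for TUBA1A, 1.06 for TUBB6, 0.54 for TUBA4A and 0.50 for TUBB3. It was -0.34 for TUBA1B, -0.27 for TUBB and -0.15 for TUBB4B. Exposure time and the age of the spheroids cannot be told apart in this difference. With 3 libraries a group, no single library was tested as standing apart from its group.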

How the results depend on the processing

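Of 45 log2 fold changes (9 members in 5 contrasts), 36 kept their direction and their side of the threshold under every alternative run. Reversals were confined to values near 0 that did not pass the test. For TUBA1C at 24 h of TPN these were -0.0019 with libraries scaled to the same total and -0.017 to 0.029 over the libraries left out in turn; at 144 h -0.014 with libraries scaled to the same total and -0.012 to 0.018 over the libraries left out; and for the difference of contrasts 0.0078 (median ratio scaling), 0.015 (quantile normalization) and -0.029 to 0.017 over the libraries left out. For TUBB2A the difference of contrasts ran from -4.038e-05 (without untreated 144 h replicate 2) to 0.11, and for TUBB3 the change over time with TPN from -0.0005135 (without TPN 24 h replicate 3) to 0.045. The TUBB4B difference of contrasts also missed the threshold with no filter, median ratio scaling, quantile normalization and no intensity trend (adjusted p 0.058 to 0.079). The number of tubulin DEGs at 24 h went from 1 to 0 with a pseudocount of 1, and for the difference of contrasts from 2 to 1 with a mean of at least 5 FPKM, which removes TUBA1A. As sums of TPM, the β-tubulin change over time in untreated spheroids was -20.6% in place of -19.8%. Deviations of same-numbered replicates correlated from -0.083 to 0.151 and those of other numbers from -0.241 to 0.114. All 6 pairs of replicate 3, 5 of 6 of replicate 1 and 1 of 6 of replicate 2 were positive, and the own number correlated best in 22 of 36 cases, a hint of pairing that the labels do not state. The numbers were not taken as pairs, and the replicate block changed no call of any member. Scalings of the gene lists and the alternatives for TUBB8B were chosen after seeing the data. Libraries left out in turn gave no other change of a member count by over 1.5 times. Values of TUBA1A rest on the fewest fragments.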
